A study of Mus musculus with 3 samples.

Results

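The G1 cyclins and their kinases were followed as 8 genes, *Ccnd1*, *Ccnd2*, *Ccnd3*, *Ccne1*, *Ccne2*, *Cdk2*, *Cdk4* and *Cdk6*, in sorted mouse Müller glia (MG) and in the retinal neurons of the same libraries. The genes were chosen by symbol for their place in the pathway, with earlier results of these data known, and all 8 were found among the 32287 features of the count matrices. D-type cyclins bind CDK4 or CDK6, and E-type cyclins bind CDK2. These kinases phosphorylate the retinoblastoma protein and release E2F factors, whose targets carry a cell from G1 into S phase. The inhibitor p27Kip1, encoded by *Cdkn1b*, blocks cyclin E and CDK2 and helps to keep adult MG, the radial glia of the retina, out of the cell cycle.

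All mice were Glast-CreERT2; R26-CAG-LSL-Tdt, in which tamoxifen turns on tdTomato in cells that use the *Glast* (*Slc1a3*) promoter. Tamoxifen (75 mg/kg) was given on 5 days from postnatal day 20 (P20), virus was injected into the vitreous at P28 and retinas were taken at P51. The control group received AAV7m8-GFAP-GFP-LacZsh. The CCA (cell cycle activator) group received AAV7m8-GFAP-cyclin D1-p27sh, which carries cyclin D1 and a small hairpin RNA against p27Kip1, mixed 9 to 1 with the control virus as an indicator of infection. The CCANT group received the same mix, then NMDA, an agonist of glutamate receptors, at P35 and trichostatin A (TSA), an inhibitor of histone deacetylases, at P37. A human *GFAP* promoter drove the transgenes in all 3 groups, and each group was 1 droplet library of tdTomato-sorted cells from 2 to 4 pooled retinas, chosen for good GFP signal.

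With 1 library per group there was no replicate, so differences carry no p-value. Levels are summed unique molecular identifiers (UMIs) of a gene per 1000000 UMIs of all genes (CPM). Ratios are given as log2 values with exact 95% Poisson intervals, which hold the error of counting alone and not the spread between mice. A gene was counted as past 1.5-fold when its ratio was at least 1.5 in either direction and the interval left out a ratio of 1, among genes with at least 50 UMIs in both sets of cells together. The share of all such genes that passed stands beside the count of the members.

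The authors kept 3758 control cells (median 24235.5 UMIs), 3890 CCA cells (20710.5 UMIs) and 3278 CCANT cells (20721.5 UMIs). The summed level of the 9 MG markers was 23668 CPM in control, 23841 CPM in CCA and 25295 CPM in CCANT cells. Rod markers stood at 289 CPM, 808 CPM and 1434 CPM. In the MG-like clusters of kept cells alone (3644 control, 2760 CCA and 2021 CCANT cells), which leave out the clusters of rod or mixed markers and those without a name, 4 members were past 1.5-fold in CCA over control (10.8% of all genes) and in CCANT over control (12.2%), with *Ccnd1* at −0.64 and −0.89 and *Ccnd2* at 0.79 and 2.22 as log2 ratios. The MG-like clusters include one led by *Top2a* and S-phase genes, with 162 CCA, 56 CCANT and no control cells. Left out is a cluster without a name whose highest marker class was MG, with 70 control, 731 CCA and 782 CCANT cells. Y-linked UMIs marked 3505 kept control cells and *Xist* UMIs none of them, whereas *Xist* marked 3859 CCA cells and Y-linked UMIs none. In the CCANT library 1183 cells carried Y-linked and 1718 *Xist* UMIs, so sex and treatment cannot be told apart between the control and the CCA library. Kept barcodes shared between libraries numbered 8 for control and CCA, 4 for control and CCANT, and 2 for CCA and CCANT. A further 2 kept control cells held 19 and 86 UMIs of T and NK cell markers, whereas no other kept cell held more than 2, and the ratios that change by over 1.5-fold, or a count of members that changes, without them are given both ways. The library ratios without them had 4 members past 1.5-fold in CCA over control (14.2% of genes) and in CCANT over control (16%).

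The shRNA target served as the check of the labels. *Cdkn1b* was counted at 226 CPM in control, 84.4 CPM in CCA and 106 CPM in CCANT cells, so that its log2 ratio was −1.42 (−1.46 to −1.38) between CCA and control and −1.10 (−1.13 to −1.06) between CCANT and control. A lower *Cdkn1b* level was also counted in other cell classes. In control, CCA and CCANT, ganglion-like cells held 71.6, 20.2 and 20.03 CPM of it. Amacrine-like cells held 78.7, 43.7 and 51.7 CPM, and microglia and macrophage-like cells 80.3, 52.5 and 62.6 CPM. Differences were smaller in rods (71.8, 61.6 and 71.7 CPM), bipolar-like cells (70.05, 60.1 and 67.3 CPM) and cones (68.5, 51.3 and 59.3 CPM). These classes also held MG marker UMIs, for example 5.91% of the MG-like level in control rods and 11.4% in control amacrine-like cells. In MG-like cells with no requirement for tdTomato, *Cdkn1b* stood at 229 CPM in control, 85.3 CPM in CCA and 106 CPM in CCANT. Any MG RNA among the counts of other classes would thus differ between libraries too. The part of this in the values, and the cause, were not tested. No feature of the matrices counts the vector's cyclin D1 separately. Whether a transcript of the vector, which need not hold the 3′ end of the mouse gene, was counted under *Ccnd1* is not given in the sources used here, so the *Ccnd1* values below are those of the feature and not a measure of vector expression.

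In GRCm38, *Ccnd1* (ENSMUSG00000070348) lies at chr7:144929931-144939925 on the reverse strand, *Ccnd2* (ENSMUSG00000000184) at chr6:127125162-127152193 on the reverse strand and *Ccnd3* (ENSMUSG00000034165) at chr17:47505051-47599691 on the forward strand. The E-type genes are *Ccne1* (ENSMUSG00000002068) at chr7:38097984-38107534 on the reverse strand and *Ccne2* (ENSMUSG00000028212) at chr4:11191351-11204779 on the forward strand. Among the kinase genes, *Cdk2* (ENSMUSG00000025358) is at chr10:128697939-128705031 on the reverse strand, while *Cdk4* (ENSMUSG00000006728) at chr10:127063534-127067920 and *Cdk6* (ENSMUSG00000040274) at chr5:3341485-3531008 are both on the forward strand. Of the 8 genes, 7 overlap a gene on the other strand (*Ints8* for *Ccne2*, *Pmel* for *Cdk2*, *Tspan31* for *Cdk4*), *Ccne1* overlaps none, and the use of strand in counting is not given in the sources used here.

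Promoter sequence is shown where a searched motif was present, as context for the members' positions. RefSeq promoter windows (GRCm38.p6, 250 bases before to 50 after a gene's start) were at hand for 5 of the 8 members, *Ccnd3*, *Ccne1*, *Cdk2*, *Cdk4* and *Cdk6*. They use the RefSeq start, which for *Cdk6* lies inside the gene as given above. They were searched on both strands for the E2F-type words TTTCCCGC, TTTGGCGC and TTTCGCGC and for the E-box CACGTG, a word that reads the same on both strands. Both motifs were chosen after the windows had been read, so the counts are a description. An E2F-type word is present in 1.84% of 32851 windows and, of the members, in that of *Cdk2*. The E-box is present in 7.15% of the windows, and 4 or more copies in 0.0244% (8 windows). *Cdk4* has 4 and *Cdk6* has 1, whereas *Ccnd3* and *Ccne1* have neither motif. The matches are printed with 9 bases on each side and the motif in capitals, in the direction of the gene.
*Cdk2*, chr10:128705175-128705200, reverse strand: ccaggaactGCGGGAAAgttgtgcag
*Cdk4*, chr10:127063354-127063377, forward strand: gcagccagtCACGTGccacacagc
*Cdk4*, chr10:127063408-127063431, forward strand: tcaaggggtCACGTGggatagcaa
*Cdk4*, chr10:127063428-127063451, forward strand: gcaacaggtCACGTGgccgtcagg
*Cdk4*, chr10:127063515-127063538, forward strand: ggtgaagatCACGTGtccagaacg
*Cdk6*, chr5:3343664-3343687, forward strand: ctgcggcccCACGTGggtgaaccc

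Across all kept cells, the members split into 3 patterns between libraries. *Ccnd1* was lower in CCA and CCANT than in control cells. *Ccnd2*, *Ccne1* and *Ccne2* were higher in both, whereas *Ccnd3*, *Cdk2*, *Cdk4* and *Cdk6* stayed within 1.5-fold. From control to CCA, 4 of the 8 members were past 1.5-fold (3 higher and 1 lower), against 14.3% of all 17630 genes tested (11.4% higher and 2.92% lower). From control to CCANT, the same 4 members were past it in the same directions, against 16.1% of genes. The 2 ratios share the control library.

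Among the D-type cyclins, *Ccnd1*, which the CCA vector is built to supply, was counted at 213 CPM in control, 136 CPM in CCA and 129 CPM in CCANT cells. It was thus the only member past 1.5-fold in the lower direction over the control library, with log2 ratios of −0.65 (−0.68 to −0.62) in CCA and −0.73 (−0.76 to −0.69) in CCANT. The difference between CCANT and CCA was small, at −0.08 (−0.12 to −0.04). The CCA ratio sits near the limit, since 1.5-fold is 0.58 on this scale.

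*Ccnd2*, another cyclin partner of CDK4 and CDK6, went the other way, at 13.9 CPM in control, 21.9 CPM in CCA and 56.6 CPM in CCANT cells. The log2 ratio was 0.66 (0.56 to 0.76) for CCA over control, 2.03 (1.94 to 2.12) for CCANT over control and 1.37 (1.29 to 1.45) for CCANT over CCA. The first of these is also near the limit, and with median-of-ratios scaling it was 0.57, under 1.5-fold. The last is the highest among the members in that comparison, in which 3 of 8 were past 1.5-fold against 8.32% of genes. The third D-type cyclin, *Ccnd3*, was counted at 186 CPM, 179.5 CPM and 189 CPM, with log2 ratios of −0.05 (−0.08 to −0.02) between CCA and control and 0.02 (−0.01 to 0.05) between CCANT and control.

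Both E-type cyclins were scarce. *Ccne1*, an activator of CDK2, gave 100 UMIs in control, 217 in CCA and 121 in CCANT cells, which are 1.05 CPM, 2.61 CPM and 1.71 CPM. *Ccne2*, its paralogue, gave 137, 510 and 235 UMIs, or 1.44 CPM, 6.12 CPM and 3.32 CPM. The log2 ratios of CCA over control were 1.31 (0.97 to 1.67) for *Ccne1* and 2.09 (1.82 to 2.38) for *Ccne2*, and those of CCANT over control 0.71 (0.31 to 1.10) and 1.21 (0.90 to 1.52). Both were lower in CCANT than in CCA, by a log2 ratio of −0.61 (−0.94 to −0.28) for *Ccne1* and −0.88 (−1.11 to −0.66) for *Ccne2*.

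The kinase genes varied less. *Cdk4*, the partner of the D-type cyclins, was counted at 35.4 CPM in control, 49.7 CPM in CCA and 47.1 CPM in CCANT cells, and the log2 ratios against control were 0.49 (0.42 to 0.55) in CCA and 0.41 (0.34 to 0.48) in CCANT. *Cdk2*, the partner of cyclin E, stood at 4.62 CPM, 6.68 CPM and 6.099 CPM, with ratios of 0.53 (0.35 to 0.72) and 0.40 (0.21 to 0.60). *Cdk6*, the other kinase of the D-type cyclins, stood at 74.1 CPM, 67.1 CPM and 74.2 CPM. All intervals of *Cdk2* and *Cdk4* over control left out 0, though no ratio reached 1.5-fold.

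**Figure D1:**
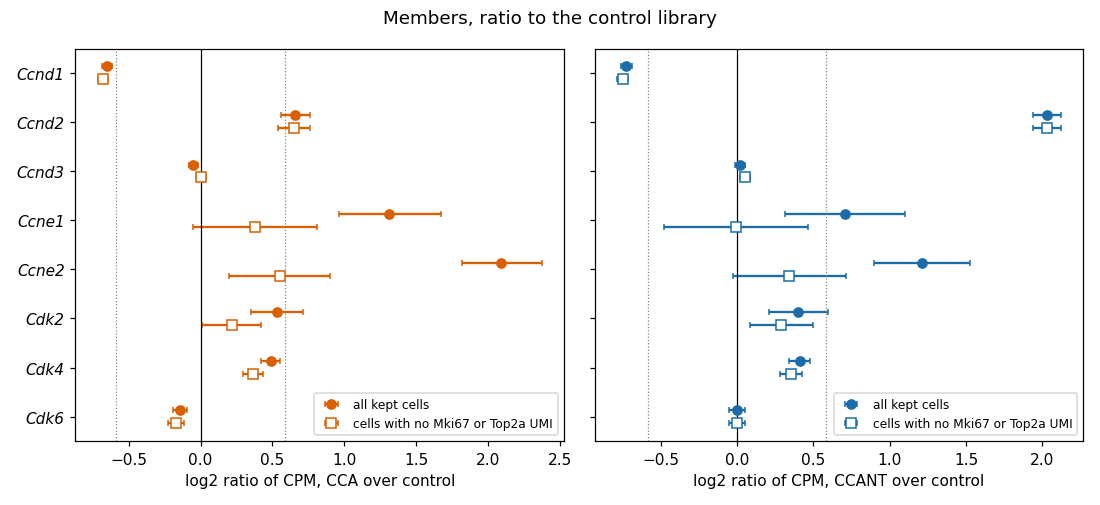
Log2 ratios of CPM for the 8 members between libraries, with exact 95% Poisson intervals (counting error only, 1 library per group), in all kept cells and in kept cells without a *Mki67* or *Top2a* UMI. *Ccne1* and *Ccne2* stand at 1.31 and 2.09 for CCA over control in all kept cells and at 0.38 and 0.55 without the *Mki67* or *Top2a* cells, whereas *Ccnd1* (−0.65 and −0.68) and *Ccnd2* (0.66 and 0.65) hardly move.

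To compare shares of cells with a UMI at 1 depth, 8000 UMIs were drawn from each cell, and 36 control, 103 CCA and 53 CCANT cells below that depth were set aside. *Ccnd1* was found in 73.5% of control (72.0% to 74.9%), 54.1% of CCA and 52.8% of CCANT cells. *Ccnd2* was found in 6.96% (6.16% to 7.82%), 9.51% and 25.4% (23.9% to 26.9%). At their own depth the shares of *Ccnd1* and *Ccnd2* in control cells were 93.5% and 14.3%. *Ccnd3* differed little, at 74.0%, 70.3% and 74.0%, and *Cdk6* stood at 39.8%, 35.3% and 39.8%. *Cdk4* was present in 24.0%, 33.2% and 32.3% of cells. *Cdk2*, at 3.47%, 5.28% and 4.53%, *Ccne2*, at 1.24%, 2.90% and 1.80%, and *Ccne1*, at 0.752%, 1.45% and 1.02%, were detected in few cells of any library.

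*Ccnd2* was also the most uneven D-type cyclin. Its ratio of variance to mean over the thinned cells was 2.21 in control, 3.30 in CCA and 2.39 in CCANT cells, against 1.67, 1.76 and 1.76 for *Ccnd1*. At full depth, 15 control, 32 CCA and 43 CCANT cells held 10 or more *Ccnd2* UMIs, of which 0, 7 and 8 also held a *Mki67* or *Top2a* UMI. Without these cells the *Ccnd2* level was 11.3 CPM, 15.3 CPM and 45.9 CPM. The order of libraries stayed. *Ccnd2* was then under 1.5-fold between CCA and control, but not between CCANT and control. The cells left out were picked by *Ccnd2* itself, which lowers its level in every library, so this cannot show that the CCA ratio rests on them.

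Within CCANT, *Ccnd2* differed between cells with Y-linked and cells with *Xist* UMIs. These cells come from different mice among 2 to 4 pooled retinas, so sex and mouse cannot be told apart here. It stood at 68.8 CPM in cells with Y-linked UMIs and 42.7 CPM in cells with *Xist* UMIs, a log2 ratio of −0.69 (−0.79 to −0.59) for *Xist* over Y-linked cells, and it was the only member past 1.5-fold there, where 3.32% of genes were. Y-linked CCANT over Y-linked control cells gave a log2 ratio of 2.31 (2.21 to 2.42) for *Ccnd2* and −0.75 (−0.80 to −0.70) for *Ccnd1*. The same 4 members were past 1.5-fold as in all cells, against 16% of genes. *Xist* CCANT over *Xist* CCA cells gave 0.96 (0.86 to 1.06) for *Ccnd2*, −0.86 (−1.33 to −0.42) for *Ccne1* and −1.08 (−1.40 to −0.77) for *Ccne2*, against 8.62% of genes past 1.5-fold. No such comparison exists for CCA and control.

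The kept cells fell into 9 clusters, which were built from the expression of the same cells, so the values by cluster are descriptions. The 5 clusters with at least 50 cells in control and CCA are 4 MG-like clusters (1, 2, 4 and 5) and 1 without a name (3, led by *Lcn2* and *Aldh1a1*). *Ccnd1* was lower in CCA than in control cells in each of them, at 130 against 165 CPM, 129 against 208 CPM, 135 against 357 CPM, 155 against 277 CPM and 117 against 383 CPM in clusters 1 to 5. *Ccnd2* had no such common direction. It was higher in CCA than in control cells in cluster 1 (12.2 against 9.28 CPM), cluster 2 (10.3 against 4.18 CPM) and cluster 4 (74.2 against 17.5 CPM), and lower in cluster 3 (14.1 against 30.3 CPM) and cluster 5 (27.0 against 59.9 CPM). In CCANT, *Ccnd2* stood above control in the 4 clusters shared with it, at 28.2 CPM in cluster 1, 33.3 CPM in cluster 2, 47.5 CPM in cluster 3 and 118 CPM in cluster 5. The libraries fill these clusters unequally, with 2223 control, 574 CCA and 146 CCANT cells in cluster 1 and 89, 779 and 662 in cluster 5.

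**Figure D2:**
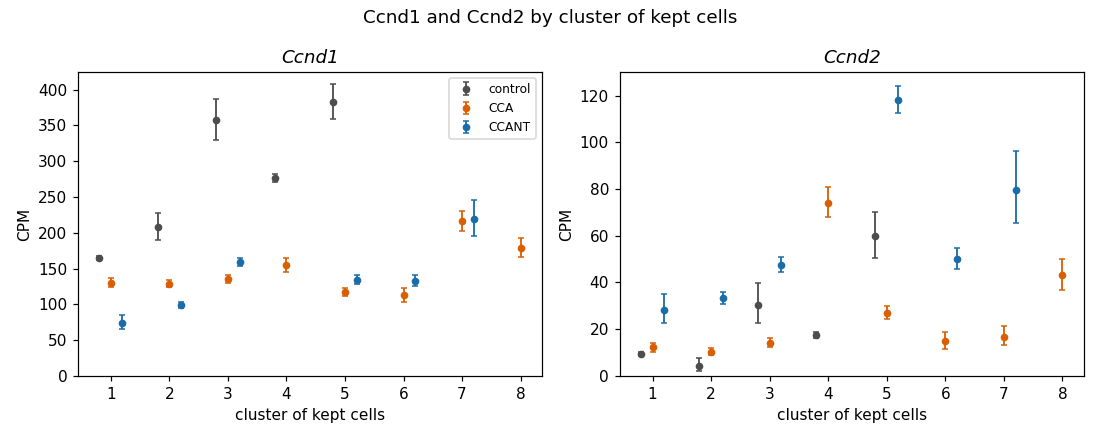
*Ccnd1* and *Ccnd2* in CPM by cluster of kept cells, with exact 95% Poisson intervals, for each library with at least 50 cells in the cluster. In all 5 clusters that control and CCA share, the control value of *Ccnd1* is the higher one, whereas *Ccnd2* in CCA lies above control in clusters 1, 2 and 4 and below it in clusters 3 and 5.

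Of the remaining clusters, 7 and 8 are led by genes of cycling cells. Cluster 6 has mixed rod and MG markers, and cluster 9 has rod markers. Cluster 7, led by *Top2a* and the S-phase genes *Dtl* and *Atad2*, held 162 CCA, 56 CCANT and no control cells, and showed *Ccne2* at 65.6 CPM in CCA and 57.6 CPM in CCANT and *Cdk2* at 28.6 CPM and 22.1 CPM. Cluster 8, led by *Cenpf*, *Top2a* and *Mki67*, held 168 CCA, 41 CCANT and 2 control cells, and showed *Ccnd3* at 73.3 CPM in CCA, the lowest value of *Ccnd3* in any of the 8 clusters with at least 50 CCA cells (up to 209 CPM).

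*Mki67*, a protein of cycling nuclei, and *Top2a*, the topoisomerase of S, G2 and M phase, were then used to separate cells in cycle. At least 1 UMI of either was present in 42 of 3758 control (1.12%, 0.807% to 1.51%), 752 of 3890 CCA (19.3%, 18.1% to 20.6%) and 299 of 3278 CCANT cells (9.12%, 8.16% to 10.2%). Neurons, which should lack both transcripts, give the background. Of them, 3.67% of rods, 6.31% of bipolar, 7.75% of amacrine and 16.5% of ganglion-like cells held such a UMI in the CCA library, at median depths of 4969, 14765, 25538.5 and 51408 UMIs. In CCANT they were 1.88%, 4.09%, 7.28% (5.38% to 9.59%) and 7.69%, at 5049, 14239, 21690 and 50474 UMIs, so the kept CCANT share lies close to that of amacrine-like cells. In control they were 0.118%, 0.179%, 2.89% and 4.17%, at 5071, 16637, 22438 and 59123 UMIs, so the kept control share lies below those of amacrine-like and ganglion-like cells and is read as background. Of the positive cells, 35 in control, 431 in CCA and 187 in CCANT held 1 UMI only. Those with 10 or more numbered 2, 148 and 49, and the 2 in control are the cells with T and NK markers, which held 181 of the 226 *Mki67* and *Top2a* UMIs of all kept control cells.

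Without the positive cells, neither E-type cyclin was past 1.5-fold between libraries. The CCA over control log2 ratio of *Ccne1* became 0.38 (−0.05 to 0.81) and that of *Ccne2* 0.55 (0.20 to 0.90), and the CCANT over control ratios −0.01 (−0.48 to 0.46) and 0.34 (−0.03 to 0.71). *Ccnd1*, at −0.68 (−0.72 to −0.64) in CCA and −0.75 (−0.79 to −0.71) in CCANT, and *Ccnd2*, at 0.65 (0.54 to 0.76) and 2.03 (1.94 to 2.12), stayed close to their values in all cells. That left 2 of 8 members past 1.5-fold in each comparison, against 11.4% of genes for CCA and 14.1% for CCANT. Between CCANT and CCA, *Ccnd2* was the remaining member past it, at 1.38 (1.29 to 1.46), against 6.65% of genes, with *Ccne1* at −0.39 (−0.87 to 0.09) and *Ccne2* at −0.21 (−0.58 to 0.16).

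Within a library, the cells with a *Mki67* or *Top2a* UMI held more of 3 members. In CCA, *Ccne1* stood at 7.35 CPM in positive and 1.34 CPM in negative cells, *Ccne2* at 21.1 CPM and 2.12 CPM, and *Cdk2* at 11.6 CPM and 5.36 CPM. The log2 ratios were 2.46 (2.05 to 2.86), 3.32 (3.04 to 3.61) and 1.12 (0.86 to 1.37), and these 3 of 8 members were past 1.5-fold against 9.89% of genes. CCANT gave the same 3, with 2.89 (2.34 to 3.42), 3.14 (2.76 to 3.52) and 0.85 (0.47 to 1.21), against 8.85% of genes.

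*Cdk4* stayed under 1.5-fold, at 0.49 (0.39 to 0.59) in CCA and 0.44 (0.29 to 0.58) in CCANT, and *Ccnd3* was slightly lower in positive cells, at −0.27 (−0.33 to −0.21) and −0.29 (−0.38 to −0.21). In control, *Ccnd2* alone was past 1.5-fold with the T and NK cells, against 5.76% of genes, and no member was without them, against 3.92%. The 40 other positive control cells held only 2 *Ccne1* and 1 *Ccne2* UMIs.

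The cells were also divided by their number of *Mki67* and *Top2a* UMIs. In CCA, *Ccne2* stood at 2.12 CPM in cells with none, 2.92 CPM with 1, 24.5 CPM with 2 to 9 and 58.2 CPM with 10 or more. *Ccnd3* ran the other way, from 186 CPM to 172 CPM, 170 CPM and 103 CPM. *Ccnd1*, at 133 CPM, 126 CPM, 130.5 CPM and 208 CPM, was higher in the last set only, where it came close to the 213 CPM of all control cells. In CCANT, *Ccnd1* stood at 126.5 CPM, 131 CPM, 125 CPM and 232 CPM over the same sets.

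Cells with 2 or more UMIs against the others had 5 of 8 members past 1.5-fold in CCA (23.3% of genes) and 5 of 8 in CCANT (19.1% of genes), all higher but for *Ccnd3* in CCANT. Cells with 10 or more UMIs against cells with none had 7 of 8 members past 1.5-fold in CCA, against 35.5% of genes, and 6 of 8 in CCANT, against 29.3%. Both libraries shared the higher *Ccnd1* (log2 ratio 0.65 in CCA and 0.88 in CCANT), *Ccne1* (3.89 and 4.70), *Ccne2* (4.78 and 5.03), *Cdk2* (1.97 and 2.24) and *Cdk4* (1.12 and 1.16), and the lower *Ccnd3* (−0.85 and −1.01). *Ccnd2* was past it in CCA, at 1.06 (0.84 to 1.28), and not in CCANT, at 0.24 (−0.06 to 0.53). The cells with 10 or more UMIs also had lower summed MG markers, at 11491 CPM in CCA and 14834 CPM in CCANT against 24681 CPM and 25687 CPM in cells with none, and a higher median depth, of 30043 and 28871 UMIs against 20394 and 20558. The part of either in the ratios was not tested.

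**Figure D3:**
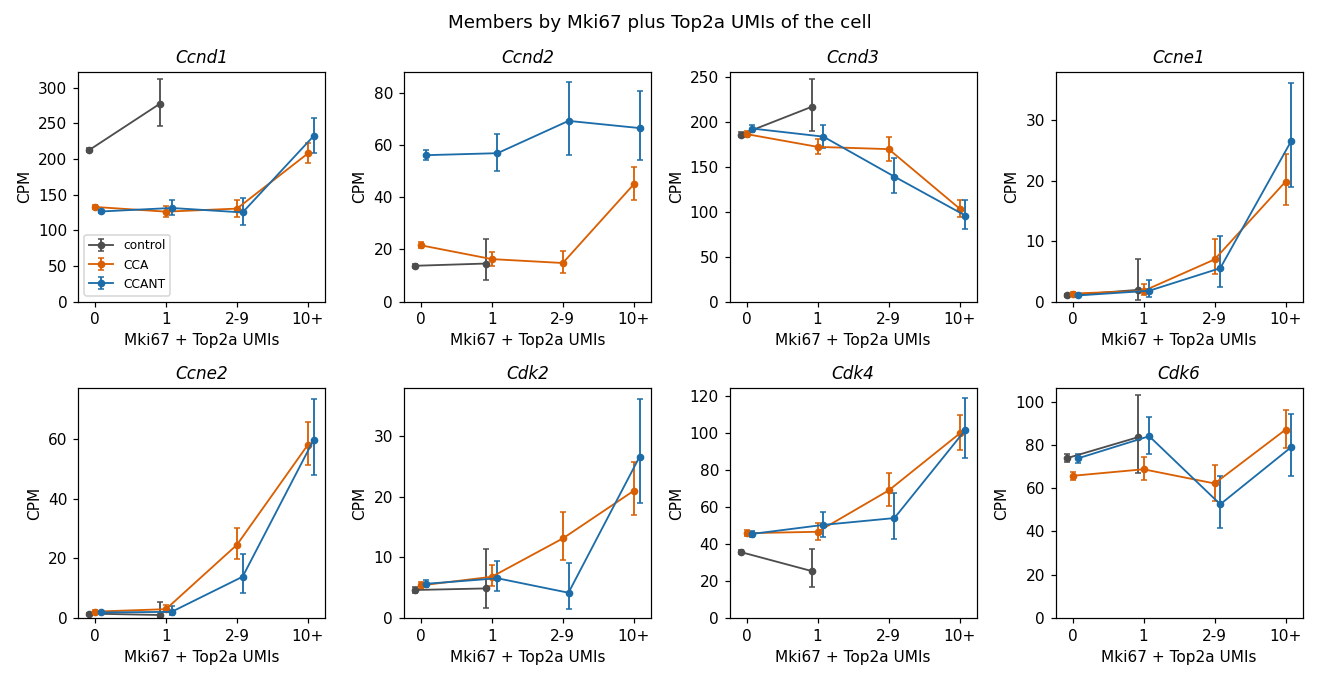
Levels of the 8 members in CPM by the number of *Mki67* and *Top2a* UMIs of a cell (none, 1, 2 to 9, 10 or more), with exact 95% Poisson intervals. *Ccne1*, *Ccne2*, *Cdk2* and *Cdk4* are highest at 10 or more UMIs in CCA and CCANT, and *Ccnd3* is lowest there. Control is drawn for none and 1 UMI only. Its set with 10 or more UMIs, which is not drawn, is the 2 cells with T and NK markers.

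The positive cells were placed by the lists of 42 S-phase and 52 G2/M genes, from which *Ccne2*, *Mki67* and *Top2a* had been left out. A cell was S-leading or G2/M-leading when its UMIs of that list were at least 2 times the number expected from negative cells at its depth and the larger of the 2 ratios. This gave 124 S-leading, 149 G2/M-leading and 479 other cells in CCA and 48, 38 and 213 in CCANT.

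*Ccne1*, *Ccne2* and *Cdk2* had their highest levels in the S-leading cells. *Ccne1* stood at 33.9 CPM in S-leading and 1.74 CPM in G2/M-leading CCA cells, and at 39.3 CPM and 0.957 CPM in CCANT, the last from 1 UMI. *Ccne2* stood at 102 CPM and 2.33 CPM in CCA and at 84.0 CPM and 3.83 CPM in CCANT. *Cdk2* stood at 33.3 CPM and 6.69 CPM, and at 32.2 CPM and 8.61 CPM.

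The S-leading cells held 4.04% of all UMIs of kept CCA cells, 67.3% of those of *Ccne2*, 52.5% of those of *Ccne1* and 20.1% of those of *Cdk2*. In CCANT the shares were 1.80%, 45.5%, 41.3% and 9.49%. The log2 ratio of S-leading over G2/M-leading cells was 5.46 (4.46 to 6.68) for *Ccne2* in CCA and 4.46 (3.06 to 6.36) in CCANT. For *Ccne1* it was 4.28 (3.11 to 5.76) in CCA and 5.36 (2.81 to 10.7) in CCANT.

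The D-type cyclins took other courses. *Ccnd3* stood at 194 CPM in S-leading and 67.5 CPM in G2/M-leading CCA cells, a log2 ratio of 1.53 (1.31 to 1.75), and at 162 CPM and 75.6 CPM in CCANT, a ratio of 1.10 (0.72 to 1.49). S-leading CCA cells matched negative cells in *Ccnd3*, with a ratio of 0.06 (−0.05 to 0.18). G2/M-leading cells also held fewer MG marker UMIs, at 8874 CPM in CCA and 11713 CPM in CCANT, whereas S-leading cells held 19399 CPM and 20424 CPM, and the part of this in the *Ccnd3* value was not tested.

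*Ccnd1* was higher in S-leading than in negative cells, at 231.5 CPM against 133 CPM in CCA (0.80, 0.69 to 0.91) and 231.5 CPM against 126.5 CPM in CCANT (0.87, 0.70 to 1.04). *Ccnd2* ordered the phases differently in the 2 libraries. It was 27.97 CPM in S-leading and 42.5 CPM in G2/M-leading CCA cells (−0.60, −0.99 to −0.22), and 85.6 CPM and 48.8 CPM in CCANT (0.81, 0.32 to 1.32).

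*Cdk4* was high in both phases, at 106 CPM and 83.2 CPM in CCA and 109 CPM and 75.6 CPM in CCANT, against 45.8 CPM and 45.4 CPM in negative cells. *Cdk6* was between 61.2 CPM and 79.7 CPM in each of the 4 sets, with no ratio past 1.5-fold. Set against negative cells, S-leading cells had 5 of 8 members past 1.5-fold in CCA (22.9% of genes) and 6 of 8 in CCANT (21.7% of genes), and all of these were higher. G2/M-leading cells had 3 of 8 in CCA (38% of genes), with *Ccnd2* and *Cdk4* higher and *Ccnd3* lower, and 3 of 8 in CCANT (27.7% of genes), with *Ccnd1* and *Cdk4* higher and *Ccnd3* lower. Of all genes tested, 37.5% were past 1.5-fold between S-leading and G2/M-leading cells in CCA and 29.6% in CCANT, and members past it numbered 5 in each library, *Ccne1*, *Ccne2*, *Cdk2*, *Ccnd3* and *Ccnd2*.

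**Figure D4:**
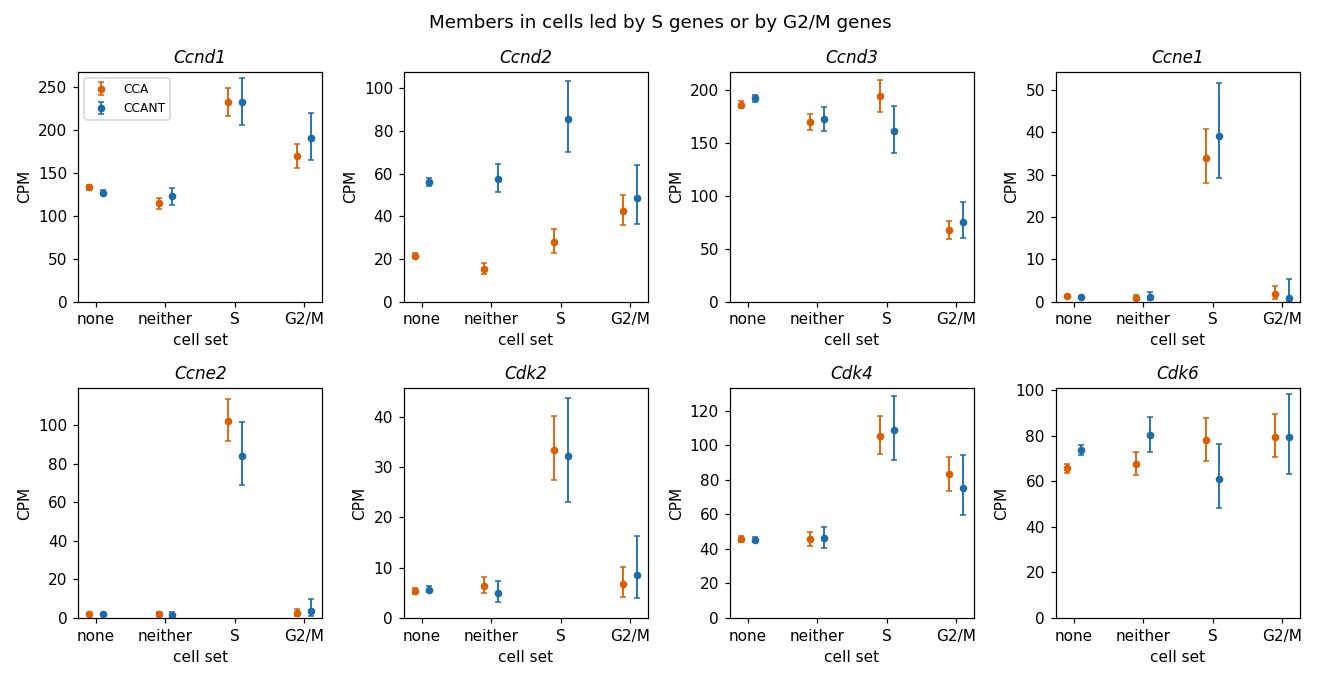
Levels of the 8 members in CPM in CCA and CCANT cells without a *Mki67* or *Top2a* UMI (none), and in cells with one that are led by S genes, by G2/M genes or by neither, with exact 95% Poisson intervals. *Ccne1*, *Ccne2* and *Cdk2* are high in S-leading cells alone, *Ccnd3* is low in G2/M-leading cells, and *Ccnd2* is higher in G2/M-leading than S-leading cells in CCA and the reverse in CCANT.

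Positive cells with neither list leading resembled the negative cells in the E-type cyclins and *Cdk4*. In CCA they held *Ccne1* at 0.837 CPM, *Ccne2* at 1.86 CPM and *Cdk4* at 45.5 CPM, against 1.34 CPM, 2.12 CPM and 45.8 CPM in cells without a *Mki67* or *Top2a* UMI. The D-type cyclins were lower in them, with *Ccnd1* at 114 against 133 CPM, *Ccnd2* at 15.4 against 21.6 CPM and *Ccnd3* at 170 against 186 CPM. In CCANT, *Ccnd3* was lower too (172 against 192 CPM), whereas *Ccnd1* (122 against 126.5 CPM) and *Ccnd2* (57.6 against 56.0 CPM) were close.

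Since 1 vector carries cyclin D1 and the shRNA against p27Kip1, the members were read by the *Cdkn1b* UMIs of a cell thinned to 8000 UMIs, as a description. In CCA, cells with 2 or more *Cdkn1b* UMIs against cells with 0 gave a log2 ratio of −0.14 (−0.28 to −0.01) for *Ccnd1*. The control library, which lacks the vector, gave −0.08 (−0.18 to 0.02). *Ccne2* in CCA stood at 6.16 CPM with 0, 3.93 CPM with 1 and 2.53 CPM with 2 or more *Cdkn1b* UMIs, a log2 ratio of −1.28 (−2.28 to −0.41) that rests on 12 UMIs in the last set. *Cdk2* gave −0.69 (−1.43 to −0.01) and *Cdk4* −0.30 (−0.53 to −0.08) in CCA. S-leading CCA cells, which held 67.3% of *Ccne2* and 20.1% of *Cdk2* UMIs, had *Cdkn1b* at 57.4 CPM against 84.0 CPM in negative cells. Phase and *Cdkn1b* count thus cannot be told apart in these ratios, and the part of either was not tested. In CCANT, *Ccnd2* was the only member whose interval left out 0, at 0.26 (0.06 to 0.46).

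The pathway around the members was read from a list of 37 genes, of which 36 could be tested between CCA and control. In all, 16 were higher and 1 lower, where 11.4% and 2.92% of all genes were. The median log2 ratio of the list was 0.50, against 0.07 over all genes tested. In CCANT over control, 15 were higher and 1 lower (10.6% and 5.51% of all genes), with a median of 0.26 against 0.03.

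Among the 7 genes of inhibitors in CCA over control, *Cdkn1b* was the lower one, and *Cdkn1a* (p21), at 78.0 against 9.68 CPM, *Cdkn2a* (p16 and ARF), at 2.14 against 0.136 CPM, *Cdkn2c* (p18), at 39.0 against 12.5 CPM, and *Cdkn2d* (p19), at 22.2 against 13.8 CPM, were higher. Of 13 pocket proteins, E2F factors and their partners, 4 were higher: *Rbl1* (1.74-fold), *E2f1* (1.96-fold), *E2f7*, at 4.01 CPM in CCA against 1 UMI in control (log2 ratio 8.58, 6.09 to 13.9), and *E2f8*, at 3.27 CPM against 3 UMIs (6.70, 5.14 to 8.99). None of 5 genes of CDK activation was past 1.5-fold. Of 5 genes of protein turnover, *Cks1b* (3.43-fold) and *Cks2* (24.6-fold), which bind CDKs, were higher. All 4 tested later cyclins and kinase were higher, *Ccna2* (12.98-fold), *Ccnb1* (141-fold), *Ccnb2* (26.9-fold) and *Cdk1* (26.1-fold). Without the 2 control cells with T and NK markers, which hold 7 of the 13 *Ccnb1* UMIs of control cells, *Ccnb1* was 305-fold higher, from 6 control UMIs. *E2f7* then had 0 control UMIs, which makes it at least 128-fold higher at a floor of 3 counts in the library, and *E2f8* had 2 (log2 ratio 7.28, 5.42 to 10.3). The number of list genes past 1.5-fold was the same, at 16 higher and 1 lower. *Myc* (6.21-fold, from 29 control and 157 CCA UMIs) and *Mycn* (2.57-fold, from 21 and 47 UMIs), which encode transcription factors that drive growth, were higher too.

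Cells with a *Mki67* or *Top2a* UMI against the others in CCA had 19 of 35 tested genes of the list higher and 1 lower, where 8.32% and 1.56% of all genes were. Their median log2 ratio was 0.65, against 0.03 over all genes. Of the later cyclins and kinase and the turnover genes, *Ccnb1* stood at 86.4 against 1.19 CPM, *Ccnb2* at 70.0 against 1.66 CPM, *Ccna2* at 48.9 against 1.25 CPM, *Cdk1* at 99.5 against 3.27 CPM and *Cks2* at 179 against 4.87 CPM. The inhibitors *Cdkn1c* (1.57-fold), *Cdkn2a* (22.9-fold), *Cdkn2c* (2.75-fold) and *Cdkn2d* (2.87-fold) were higher, whereas *Cdkn1b* was not, at 86.0 against 84.0 CPM. This pooled *Cdkn1b* value joins 57.4 CPM (49.6 to 66.1) in S-leading and 112 CPM (101 to 124) in G2/M-leading CCA cells. In CCANT, *Cdkn1b* stood at 58.1 CPM in S-leading, 96.6 CPM in G2/M-leading and 107 CPM in negative cells.

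E2F factors and partners made up 7 of the 19, *Rbl1* (2.92-fold), *E2f1* (2.38-fold), *E2f2* (5.10-fold), *E2f3* (1.55-fold), *E2f7* (79.6-fold), *E2f8* (98.1-fold) and *Tfdp1* (1.68-fold). *Cdc25a*, a phosphatase that activates CDK2, was 1.78-fold higher, *Skp2*, which marks p27Kip1 for degradation, 2.53-fold and *Cks1b* 7.49-fold. *Myc* was lower, at 1.25 against 2.05 CPM (−0.71, −1.43 to −0.06), from 22 UMIs in the positive cells.

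Neurons were taken from all 30990 cells that passed 2000 features, 100000 UMIs and 15% mitochondrial UMIs, without a requirement for tdTomato. Named clusters gave 3493 rod-like, 669 cone-like, 2306 bipolar-like, 1913 amacrine-like and 275 ganglion-like cells over the 3 libraries. Horizontal-like cells, with at most 30 in a library, are left out of the accounts of neurons that follow, and 15.4% of control, 30.8% of CCA and 32.2% of CCANT cells fell into clusters without a name or of mixed markers. Neuron classes also held UMIs of MG markers. Their summed MG markers were 4.00% to 11.4% of the MG-like level in control and 3.70% to 12.5% in the other libraries. A member's level was therefore set beside that share of its MG-like level, called the carry-over level here. Whether neurons transcribe any of these markers was not tested, so this level is a reference and not a measure of carried-over RNA. The MG-like cells of this wider set, taken with no requirement for tdTomato, had *Ccnd1* lower and *Ccnd2*, *Ccne1* and *Ccne2* higher past 1.5-fold in CCA over control (10.5% of genes), and *Ccnd1* lower and *Ccnd2* higher in CCANT over control (11.9% of genes).

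*Cdk6* was higher in cone-like than in MG-like cells. Cone-like cells held 270.5 CPM in control, 286 CPM in CCA and 272 CPM in CCANT, against 74.7 CPM, 66.5 CPM and 78.2 CPM in MG-like cells, with log2 ratios of 1.86 (1.73 to 1.98), 2.11 (2.01 to 2.20) and 1.80 (1.70 to 1.90). No ratio of CCA or CCANT cones over control cones was past 1.5-fold for *Cdk6*, where 3.87% and 5.32% of genes were. After thinning to 8000 UMIs, 84.6% of control (77.4% to 90.2%), 83.1% of CCA and 83.6% of CCANT cones held a *Cdk6* UMI. The highest cone held 8, 14 and 12 of them. In rods, bipolar, amacrine and ganglion-like cells *Cdk6* lay between 3.32 CPM and 13.6 CPM, and at 0.840 to 2.54 times the carry-over level.

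*Ccne2* was likewise highest in cones among the neurons, at 30.3 CPM in control, 24.3 CPM in CCA and 25.6 CPM in CCANT, against 1.60 CPM, 2.92 CPM and 1.97 CPM in MG-like cells. The log2 ratios were 4.24 (3.80 to 4.66), 3.05 (2.68 to 3.41) and 3.70 (3.30 to 4.09). The other classes held between 3.37 CPM and 10.4 CPM. *Ccne1* followed another order. Ganglion-like cells held 9.32 CPM, 12.6 CPM and 7.05 CPM and amacrine-like cells 7.46 CPM, 7.86 CPM and 9.57 CPM, whereas rods and cones held at most 0.674 CPM. No *Ccne1* UMI was found in control or CCA cones, and 1 in CCANT cones. Cones over MG-like cells differed past 1.5-fold for 50.3% of all genes in control, 56.2% in CCA and 56.2% in CCANT, so such a difference was common. The same holds for amacrine-like cells (55.9%, 56.5% and 55.3%) and ganglion-like cells (57.9%, 57.3% and 53.9%).

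**Figure D5:**
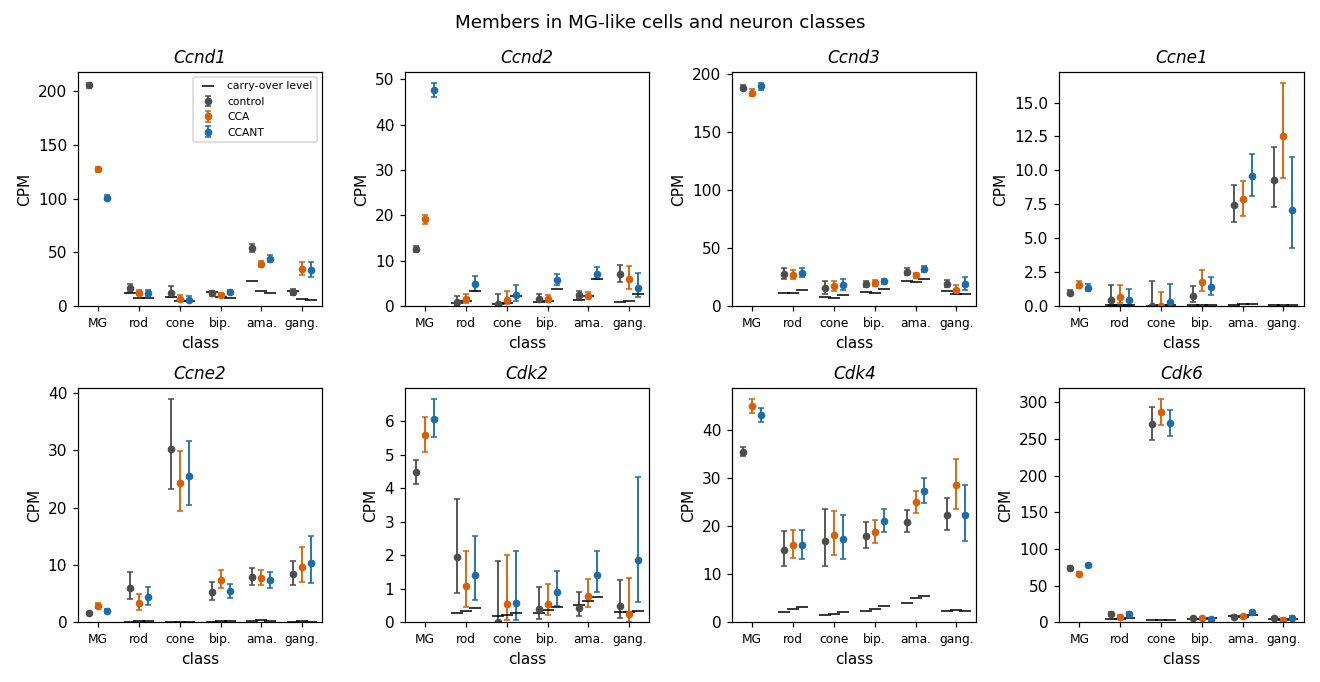
Levels of the 8 members in CPM in MG-like cells and in 5 neuron classes of each library, with exact 95% Poisson intervals and a tick at the carry-over level. That level is the class's share of the MG-like summed MG markers, applied to the member's MG-like level. *Cdk6* in cones (270.5 to 286 CPM) and *Ccne2* in cones (24.3 to 30.3 CPM) lie far above their ticks, whereas *Ccnd3* lies at 1.29 to 2.50 times its tick.

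Of the D-type cyclins, *Ccnd3* lay at 1.29 to 2.50 times the carry-over level in the 5 neuron classes. *Ccnd2* lay at 0.988 to 2.05 times it, other than in ganglion-like cells, at 8.25 times in control (6.96 CPM), 5.66 times in CCA (5.93 CPM) and 1.57 times in CCANT (4.08 CPM). The CCANT level of *Ccnd2* was past 1.5-fold over control in bipolar cells (5.75 against 1.64 CPM, 5.8% of genes) and amacrine cells (7.10 against 2.43 CPM, 9.73% of genes), where the carry-over level differed as well, at 3.68 against 0.798 CPM and 5.93 against 1.43 CPM.

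*Ccnd1* stood above carry-over in amacrine-like cells, at 53.6 CPM in control, 38.8 CPM in CCA and 44.2 CPM in CCANT, or 2.29, 2.74 and 3.52 times. In ganglion-like cells it was 13.1 CPM in control, 34.6 CPM in CCA and 33.4 CPM in CCANT, which are 0.947, 4.97 and 6.07 times the carry-over level. The log2 ratios against control were 1.41 (1.04 to 1.78) in CCA and 1.35 (0.93 to 1.77) in CCANT, the other direction than in the kept cells, and 5.8% and 6% of all genes were past 1.5-fold between these ganglion-like cells. A *Ccnd1* UMI was present in 45 of 144, 56 of 79 and 33 of 52 ganglion-like cells, and the highest cell held at most 8.89% of the class's *Ccnd1* UMIs. At 8000 UMIs the shares were 10.7% (6.12% to 17.1%), 17.9% (10.2% to 28.3%) and 25.5% (14.3% to 39.6%). The interval of control overlaps those of both CCA and CCANT at that depth. *Cdkn1b*, the shRNA target, was lower in the same ganglion-like cells, at 71.6 CPM in control, 20.2 CPM in CCA and 20.03 CPM in CCANT. Whether transcripts of the vector are part of the *Ccnd1* values in these cells was not tested.

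*Cdk4* lay between 15.1 CPM in control rods and 28.5 CPM in CCA ganglion-like cells in these 5 classes, at 4.99 to 11.9 times the carry-over level and below the 35.5 CPM, 45.0 CPM and 43.1 CPM of MG-like cells. *Cdk2* was scarce in the same classes, with 1.94 CPM in control rods as the highest value and 0 UMIs in the 153 control cones, where the upper limit of the Poisson interval is 1.83 CPM. Between CCA and control rods, 4.92% of genes were past 1.5-fold. Among them were *Cdk6*, at 7.28 against 11.2 CPM (54 and 52 UMIs), and *Ccne2*, at 3.37 against 6.04 CPM (25 and 28 UMIs). For both genes the intervals of the 2 levels overlap, with *Cdk6* at 5.47 to 9.50 CPM in CCA and 8.37 to 14.7 CPM in control rods. *Cdk6* in CCANT amacrine cells was past 1.5-fold over control too, at 13.6 against 7.84 CPM.

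The genes most like each member were sought over 20 groups of at least 50 cells, by the Pearson correlation of log2(CPM + 1) among 17303 genes. Of the kept cells, these were the sets without *Mki67* or *Top2a* UMIs in each library and those with them in CCA and CCANT. The others were the neuron classes of each library, without horizontal-like cells. The groups share libraries and cell classes, so the values describe these groups. *Ccnd1* was most like *Col5a1* (r = 0.975), *Smox* (0.975) and *Larp4b* (0.974), *Ccnd2* most like *S100a3* (0.960), *Thbs2* (0.955) and *Rpl28* (0.948), and *Ccnd3* most like *Slmap* (0.993), *Col9a3* (0.993) and *Mlc1* (0.992). For *Ccne1* they were *Fam81a* (0.951), *Anapc5* (0.944) and *Acsl5* (0.939), and for *Ccne2* *Tpr* (0.835), *Snrpd1* (0.828) and *Kif22* (0.816). *Cdk2* was most like *Slc47a2* (0.952), *Tagln2* (0.9496) and *Gm42047* (0.949), *Cdk4* most like *Cebpb* (0.968), *Dnaaf3* (0.967) and *Cox6b2* (0.965), and *Cdk6* most like *Fzd10os* (0.984), *Fzd10* (0.968) and *Gm10602* (0.963).

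Among the members themselves, *Ccnd3* and *Cdk2* (0.922) and *Ccnd2* and *Cdk4* (0.914) were the closest pairs. *Ccne1* and *Ccne2* were not alike over these groups (0.090). Of the 5 larger neuron classes, *Ccne1* was highest in ganglion-like and amacrine-like cells and *Ccne2* in cones.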

How the data were processed

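Per the labels, the authors ran Cell Ranger 6.1.1 on mm10 with tdTomato and GFP added, intronic reads included, and deposited the whole, unnormalized UMI counts: 1 matrix per library and a joint table of 10926 quality-controlled tdTomato+ cells. The joint table held 93.1% of the library UMIs of control cells and 99.9% of those of CCA and CCANT cells, so counts were taken from the matrices for its barcodes. Summed over barcodes, the matrices held 224515457 UMIs for control, 219051219 for CCA and 222497877 for CCANT. Intervals of ratios are conditional Poisson and those of shares Clopper-Pearson (scipy 1.17.1), for counting error only. Cells were clustered with scanpy 1.11.5 and leidenalg 0.10.2 (2000 variable genes, 20 neighbours, resolution 0.3 for kept and 0.5 for all cells), and classes named from marker lists. Ratios were tested on simulated data. Alternatives covered the cell set, scaling, sex, doublets, UMI limits and resolution. Named genes were the 8 members, *Mki67*, *Top2a*, *Cdkn1b*, list genes past 1.5-fold for CCA over control or in the split within CCA, and the 3 genes most like each member. Members and lists were chosen with earlier results of these data known. Nothing shows that the pooled retinas of a library were kept apart, so mice cannot be separated other than by the sex-linked UMIs of their cells. The labels and the study's methods differ on tamoxifen dose and start, and the labels are followed.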

Additional observations from a re-analysis of the deposited data

How the results depend on the processing

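No paired analysis was possible because each group is 1 library. From control to CCA, 4 members were past 1.5-fold, and 2 in cells without a *Mki67* or *Top2a* UMI. From control to CCANT, 4 became 2 in those cells, where *Ccne1* changed sign from 0.71 to −0.0064, and 2 in MG-like clusters without a tdTomato requirement. The log2 ratio of *Ccnd1* for CCA over control, −0.65, was −0.69 in MG-like clusters without that requirement, −0.74 with median-of-ratios scaling and −0.72 as a mean over cells. *Ccnd2* for CCA over control ranged from 0.57 (under 1.5-fold, median-of-ratios scaling) to 0.79. For *Mki67* or *Top2a* cells over the others, 3 members became 5 in CCA and 5 in CCANT when positive cells needed at least 2 UMIs, and 7 and 6 with 10 or more UMIs against none, an alternative chosen after seeing the data. Over all alternatives, the count in this split ran from 3 to 7 in CCA and from 2 to 6 in CCANT. The cause of these changes was not tested. Leaving out the 10% of cells with the highest doublet scores, also chosen after seeing the data, moved none of the 15 library ratios or 16 split ratios by more than its interval, and moved 29 of 144 levels in neurons. Leaving out the 2 control cells with T and NK markers, chosen after seeing the data too, left 4 members past 1.5-fold in CCA and in CCANT over control. Scrublet called 479 CCA cells and 0 control and 0 CCANT cells, so it did not work there. A higher resolution moved 2 of 144 levels. All 24 shares of cells differed at the cells' own depth. With 100 to 510 UMIs of *Ccne1* and *Ccne2* per library, small ratios of these genes were not detectable.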

Other observations

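Microglia and macrophage-like cells, which lie outside the sorted MG, numbered 223 in control, 146 in CCA and 153 in CCANT. They held *Ccnd2* at 78.1 CPM, 88.5 CPM and 50.6 CPM, and *Ccnd1* at 122 CPM, 144 CPM and 103.5 CPM. Their *Cdk6* level was 79.3 CPM, 137 CPM and 102.5 CPM. The summed MG markers in these cells, which include *Apoe*, a gene that microglia also express, were 11722 CPM, 16418 CPM and 28305 CPM.

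Horizontal-like cells numbered only 30, 28 and 30. *Ccne1* gave 29, 21 and 10 UMIs in them, which are 16.4 CPM, 15.2 CPM and 6.41 CPM. *Cdk2* gave 0, 0 and 3 UMIs.

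GFP marks the control virus, and kept control cells thinned to 8000 UMIs were read by it. Cells with 2 or more GFP UMIs against cells with 0 gave a log2 ratio of 0.38 (0.26 to 0.50) for *Ccnd1* and 0.26 (0.04 to 0.47) for *Cdk6*, and the intervals of the other 6 members held 0.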
